A study of Mus musculus with 2 samples.

Results

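The genes described here are those that interferons switch on. A list of 43 names, whose rule used no measured value but which was drawn up with earlier results of these data known, was looked up in the gene lists of both matrices. Rigi and Ddx58 are names of 1 gene, so the list holds 42 genes, and 38 of them were found among the 19465 genes of the files. The other 4 (Ifit3b, Isg15, Mx1 and Mx2) were not analysed here. Among the genes found, 8 lean to type I interferon (Ifit1, Ifit2, Ifit3, Oas1a, Oas2, Oas3, Oasl1 and Oasl2) and 8 lean to interferon gamma (Gbp2, Gbp3, Gbp5, Gbp7, Igtp, Irgm1, Irgm2 and Irf1). The remaining genes are a further GTPase (Iigp1), 4 sensors of nucleic acid, 4 transcription factors, 9 other effectors and regulators, and 4 receptor chains.

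Interferons are secreted proteins that cells release on sensing foreign or misplaced nucleic acid, or, in the case of interferon gamma, that activated T cells and natural killer cells release. Type I interferons bind the receptor chains Ifnar1 and Ifnar2, and signal through the kinases Jak1 and Tyk2 to a complex that holds Stat2 and Irf9 and binds a DNA element called ISRE. Interferon gamma binds Ifngr1 and Ifngr2, and signals through Jak1 and Jak2 to genes with an element called GAS. Among these is Irf1, a transcription factor that binds ISRE-like sites in turn. Many genes answer to both kinds of interferon, so "leaning" is a matter of degree.

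The samples were 2 formalin-fixed cerebellar sections of 5 µm (sections 1 and 2), 1 from each of 2 biological replicates. In each, a tumor had grown from organoids of the genotype HP, cultured from mouse mammary tumors in which Cre had switched on activating HER2 and PIK3CA alleles. The organoids had been injected into the cerebellum of untreated, immunocompetent mice of the same B6 background. The labels call the organoids HP-F1 for section 1 and HP-B6 for section 2, so that mouse, organoid label and section cannot be told apart, and there is no section without a tumor. Transcripts were counted with the Visium CytAssist assay, in which probe pairs that bind a transcript are collected on spots with known barcodes, and each molecule (UMI) is counted once. Each spot covers a patch of tissue, often with cells of more than 1 type. In such data more cells of a type and more RNA per cell cannot be told apart.

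Each section was divided into 4 regions, tumor, the tumor side of the edge, the neural side of the edge, and neural tissue. The border was drawn from epithelial, stromal and neural genes, none of which is an interferon-induced gene of the list, and the edge holds the spots within 2 array steps of it on either side. The regions held 39310649, 2795338, 2098639 and 19759767 UMIs in section 1 and 37970798, 3045764, 2275958 and 27959352 UMIs in section 2. The median spot of the tumor held 54974 and 38963 UMIs, against 7490 and 9515 in neural tissue. The tumors of the 2 sections were not alike. The summed level of 7 epithelial markers in tumor was 42.2 CPM in section 1 and 11950 CPM in section 2 (CPM is UMIs per 1000000 after TMM scaling), and that of 7 fibroblast markers was 63140 and 673.1 CPM. At least 1 UMI was counted for every marker except 1 epithelial marker in each edge library of section 1. The tumor of section 1 was thus low in the markers that define the injected cells, and is called tumor here by its place and its border score. Levels were compared between regions with edgeR's quasi-likelihood test over 8 summed libraries with the section as a block, and "called" means an adjusted p under 0.05 (Benjamini-Hochberg, over 19106 genes). All 38 genes passed the filter on low counts. Fold changes within 1 section were taken after adding 0.5 CPM.

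Short stretches of promoters show which elements the members carry near their starts. RefSeq windows (build GRCm38.p6, 250 bases before to 50 after the start) were at hand for 32 of the 38 genes. The ISRE core was searched as GAAANNGAAA and the GAS core as TTCNNNGAA, on both strands. The ISRE core was in a window of 17 of these 32 genes (53.1%), against 3.99% of the 27025 genes with a window, and the GAS core in 12 (37.5%), against 9.55%. Of the gamma-leaning genes 7 of 8 had an ISRE core and 5 had a GAS core, and of the type I-leaning genes with a window 4 of 7 had an ISRE core and 2 a GAS core. The cores shared bases in 1 of the 38 windows of the members. These are matches of letters and not bound sites. The stretches below stand for both groups and are printed along the strand of the gene, with the ISRE core in capitals for Ifit1, Oas3, Gbp2 and Igtp and the GAS core in capitals for Irgm2 and Irf1.
Ifit1 (chr19:34640755-34640843, plus strand): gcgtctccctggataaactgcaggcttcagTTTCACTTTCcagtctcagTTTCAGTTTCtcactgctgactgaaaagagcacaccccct
Oas3 (chr5:120777695-120777764, minus strand): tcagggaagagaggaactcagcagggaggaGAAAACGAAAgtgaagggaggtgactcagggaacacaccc
Gbp2 (chr3:142620574-142620643, plus strand): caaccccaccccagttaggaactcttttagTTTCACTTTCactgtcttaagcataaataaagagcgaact
Igtp (chr11:58199492-58199555, plus strand): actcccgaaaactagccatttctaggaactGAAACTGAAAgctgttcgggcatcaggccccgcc
Irgm2 (chr11:58214872-58214940, plus strand): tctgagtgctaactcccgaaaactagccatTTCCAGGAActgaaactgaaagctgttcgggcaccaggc
Irf1 (chr11:53769894-53769962, plus strand): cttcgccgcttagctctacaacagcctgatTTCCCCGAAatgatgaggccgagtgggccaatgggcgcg

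The first comparison asked which interferon-induced genes differ between the tumor and the neural tissue around it. Of the 38 genes 30 were higher in tumor and none was lower, and the median log2 fold change was 2.30 over the list and −0.09 over all genes tested. Over all genes 19.2% were called higher in tumor and 17.4% lower. No member was lower at an unadjusted p under 0.05 either (0 genes), and DESeq2 called 36 higher and 0 lower. Over all 19106 genes DESeq2 called 4555 higher and 3215 lower. Within each section, 34 of the 38 genes (89.5%) were higher in tumor in both sections, against 35% of all genes. The genes not called were Gbp5, Ifit2, Ifit3, Igtp, Iigp1, Irgm1, Stat2 and Trim30a. Scaling by library size alone moved the median of all genes to −0.42, and under it 28 members were called, all higher.

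**Figure D1:**
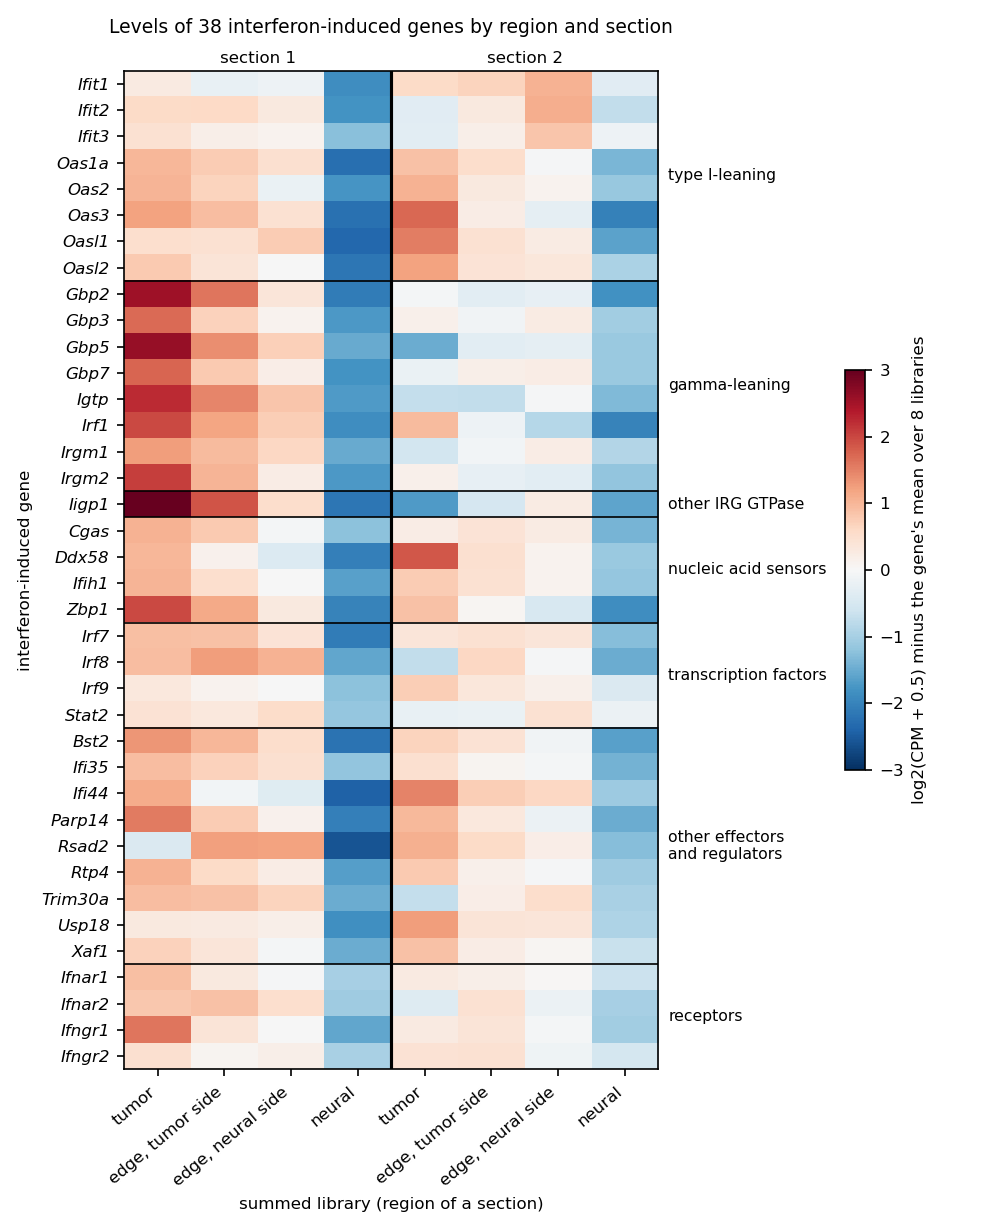
Levels of the 38 interferon-induced genes (rows, grouped by role) in the 4 regions of each section (columns). Colour gives log2(CPM + 0.5) minus the mean of that gene over the 8 libraries, so rows can be read along but not against each other. In section 1 neural tissue is the bluest region in all 38 rows, and Gbp2, Gbp5, Igtp and Iigp1 are deep red in the tumor of section 1 and near or below their mean in that of section 2.

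The 4 receptor chains were called higher in tumor, against 19.2% of all genes. Ifngr1, the ligand-binding chain for interferon gamma, measured 255.4 CPM in the tumor of section 1 and 101.4 CPM in that of section 2, against 28.2 and 40.6 CPM in neural tissue (log2 fold change 2.31, SE 0.44, adjusted p = 0.00847). Both tumors lay above both neural values. Its partner Ifngr2 rose by a log2 fold change of 1.20, and the type I chains Ifnar1 and Ifnar2 by 1.42 and 1.26.

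Among the transcription factors, Irf7, which drives further type I interferon production, measured 238.5 and 162.2 CPM in tumor against 29.0 and 52.0 CPM (log2 fold change 2.29, SE 0.37, adjusted p = 0.00404). Irf8, a factor of the macrophage and dendritic lineages, measured 178.6 and 55.8 CPM against 31.4 and 33.2 CPM (log2 fold change 1.62, adjusted p = 0.0236). Irf9 rose by a log2 fold change of 1.37. Stat2 measured 97.7 and 61.3 CPM in tumor against 31.8 and 63.9 CPM in neural tissue, where section 2 was level, and it was not called (adjusted p = 0.216).

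All 4 sensors of nucleic acid were called higher in tumor, against 19.2% of all genes. Ddx58 (RIG-I), which senses double-stranded RNA with uncapped ends, measured 123.9 and 225.8 CPM in tumor against 14.5 and 28.3 CPM in neural tissue, and had the smallest adjusted p of these genes (log2 fold change 3.04, SE 0.23, adjusted p = 0.000389). Zbp1, which senses Z-form nucleic acid and can start necroptosis, measured 405.9 and 188.7 CPM against 25.2 and 28.0 CPM (log2 fold change 3.33, SE 0.36, adjusted p = 0.001). Ifih1 (MDA5), a sensor of long double-stranded RNA, rose by a log2 fold change of 2.35 and Cgas, the sensor of cytosolic DNA, by 2.08. Each of these 4 genes was higher in tumor than in neural tissue in both sections, against 35% of all genes.

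The type I-leaning genes differed between the 2 tumors in both directions. The level in section 1 over that in section 2 ran from 0.488-fold for Oasl1 to 1.88-fold for Ifit2. Oasl2, an antiviral protein related to the oligoadenylate synthetases, measured 337.3 CPM in the tumor of section 1 and 452.0 CPM in that of section 2, against 42.8 and 100 CPM in neural tissue. All tumor values lay above all neural values, and the log2 fold change was 2.53 (SE 0.32, adjusted p = 0.00171). Oas3, which makes the oligoadenylates that turn on RNase L, measured 60.3 and 86.2 CPM in tumor and 5.05 and 6.01 CPM in neural tissue. It had the largest change of the 38 genes (log2 fold change 3.73, SE 0.39, adjusted p = 0.000879). Oas1a and Oas2, of the same enzyme family, rose by log2 fold changes of 2.72 and 2.52, and Oasl1, which restrains the translation of Irf7, by 3.15.

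The Ifit genes, whose products bind foreign or uncapped RNA, behaved differently from the Oas genes in section 2. Ifit1 measured 60.7 and 75.1 CPM in tumor against 13.5 and 39.6 CPM in neural tissue, and was called (log2 fold change 1.55, SE 0.31, adjusted p = 0.00973). Ifit3 measured 112.9 CPM in tumor and 34.1 CPM in neural tissue in section 1, but 66.5 and 73.7 CPM in section 2. The tumor of section 2 therefore lay below its neural tissue, and Ifit3 was not called (log2 fold change 0.82, SE 0.44, adjusted p = 0.194). Ifit2 measured 82.2 and 43.4 CPM in tumor against 15.5 and 32.8 CPM in neural tissue (log2 fold change 1.43, SE 0.51, adjusted p = 0.0718). Among the 4 regions of section 2 the neural side of the edge held the highest Ifit levels, with 104, 118.2 and 145.8 CPM for Ifit1, Ifit2 and Ifit3. The 3 genes lie on chromosome 19, between chr19:34550550 and chr19:34650009.

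The gamma-leaning genes differed widely between the 2 tumors. Gbp2, a guanylate-binding protein that attacks the vacuoles of intracellular microbes, measured 574.7 CPM in the tumor of section 1 and 94.0 CPM in that of section 2, against 22.5 and 27.6 CPM in neural tissue. Both tumors lay above both neural values, by log2 folds of 4.65 in section 1 and 1.75 in section 2, and Gbp2 was called (log2 fold change 3.19, SE 0.75, adjusted p = 0.0196). Gbp5, of the same family and the same stretch of chromosome 3, measured 140.2 CPM in the tumor of section 1 and 7.79 CPM in that of section 2. The neural values were 7.58 and 10.1 CPM, so that Gbp5 was higher in tumor in section 1 only, and it was not called (log2 fold change 2.13, SE 1.07, adjusted p = 0.169). Without section 1 its log2 fold was −0.36.

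The immunity-related GTPases disrupt the membranes around intracellular parasites and bacteria. Among them, Iigp1 gave the widest gap between the sections of all 38 genes. Iigp1 measured 575.2 CPM in the tumor of section 1 and 17.8 CPM in that of section 2, against 12.6 and 19.3 CPM in neural tissue. Its log2 fold was 5.45 in section 1 and −0.11 in section 2, and it was not called (adjusted p = 0.145). Igtp measured 398.8 and 50.7 CPM in tumor against 25.4 and 33.2 CPM in neural tissue (adjusted p = 0.0808), and Irgm1 measured 285.4 and 82.0 CPM against 41.4 and 64.8 CPM (adjusted p = 0.0796). Irgm2 was called, at 284.3 and 74.9 CPM against 20.3 and 29.3 CPM (log2 fold change 2.54, SE 0.59, adjusted p = 0.0189). Gbp3 and Gbp7 were called as well, with log2 fold changes of 2.35 and 2.32. Igtp and Irgm2 are close relatives that start at chr11:58199556 and chr11:58214977, and UMIs of near copies such as these, or of the Gbp, Ifit and Trim30 genes, are uncertain where a probe could bind more than 1 of them.

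Irf1 was the gamma-leaning gene whose folds in the 2 sections were closest. It measured 318.2 and 154.2 CPM in tumor and 21.7 and 19.5 CPM in neural tissue, with log2 folds of 3.85 and 2.95 (log2 fold change 3.36, SE 0.38, adjusted p = 0.00111). Across the 8 gamma-leaning genes the median log2 fold was 3.81 in section 1 and 1.06 in section 2, and section 1 had the larger fold in 8 of 8. Across the 8 type I-leaning genes the medians were 2.82 and 2.18, and section 1 had the larger fold in 6 of 8. Over all genes the medians were −0.17 and −0.01, and section 1 had the larger fold in 40.2%. With 1 mouse of each kind, the difference between sections has no test.

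**Figure D2:**
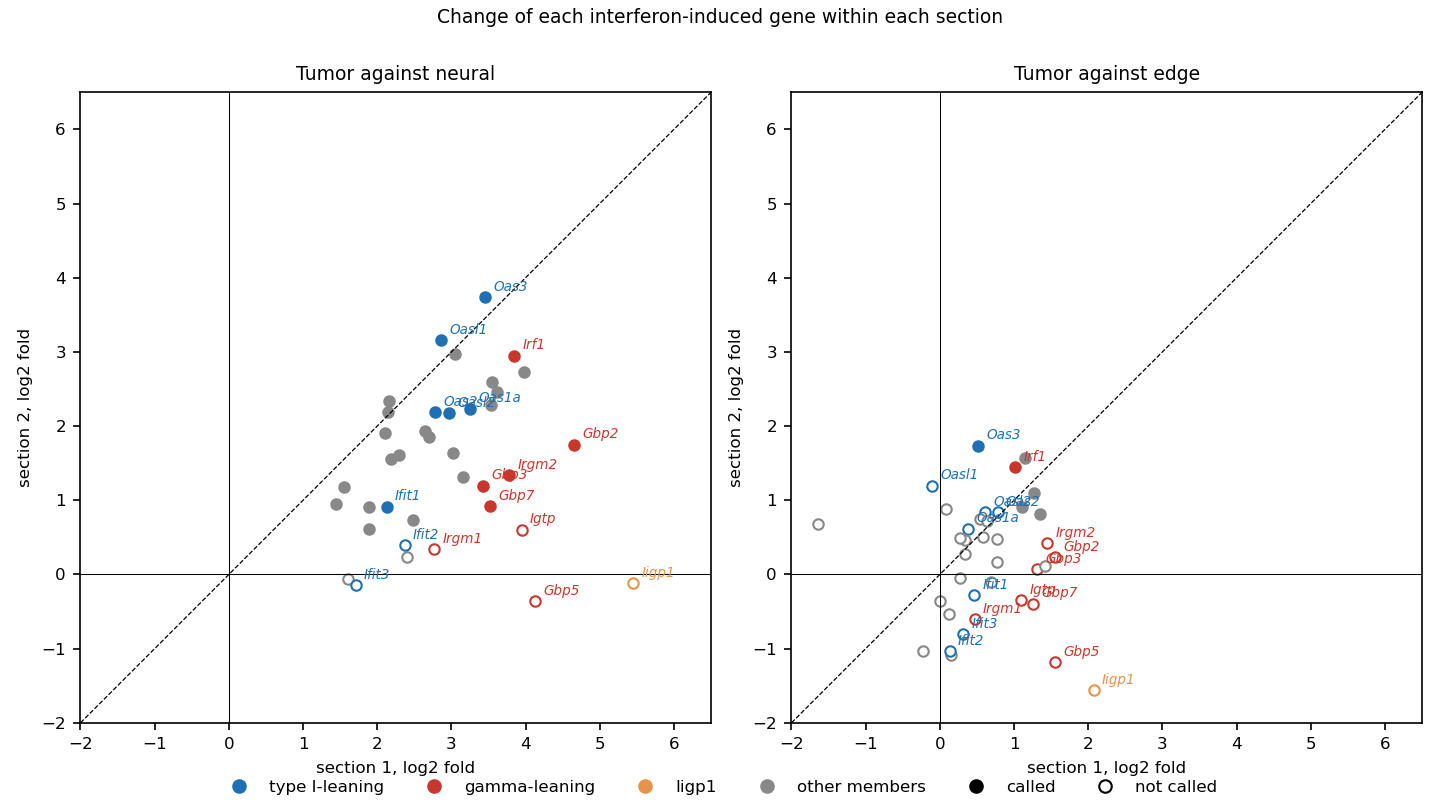
Log2 fold of each of the 38 genes within section 1 (horizontal axis) and within section 2 (vertical axis), for tumor against neural tissue (left) and tumor against the edge (right). Filled points were called over both sections, and the broken line marks equal folds. In the left panel all 8 gamma-leaning genes (red) and Iigp1 (orange, at 5.45 and −0.11) lie below the line, and Oas3 and Oasl1 (blue) lie just above it.

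The level in section 1 over that in section 2 gives the same contrast region by region. For the gamma-leaning genes the median log2 ratio of section 1 to section 2 was 1.93 in tumor, 1.31 on the tumor side of the edge, 0.57 on its neural side and −0.46 in neural tissue. All 8 were higher in section 1 in tumor, and 1 of 8 was in neural tissue. Over all 19465 genes 9385 were higher in section 1 in tumor (median −0.02) and 10391 in neural tissue (median 0.03). For the type I-leaning genes the medians were −0.17, 0.13, −0.33 and −0.97. Iigp1 was 31.5-fold higher in the tumor of section 1 than in that of section 2, Gbp5 17.0-fold and Gbp2 6.09-fold, and in neural tissue all 3 were lower in section 1. These ratios compare 1 section with 1 section and hold no test.

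Levels of some cell markers moved with these genes, and their part in the results was not tested. The summed level of 12 macrophage markers was 11300 CPM in the tumor of section 1 and 3505 CPM in that of section 2, 10960 and 9343 CPM on the tumor side of the edge, 10380 and 5505 CPM on its neural side, and 1991 and 2060 CPM in neural tissue. The sum of 8 T cell markers was 298.5 CPM in the tumor of section 1 and 16.1 CPM in that of section 2, against 30.5 and 17.2 CPM in neural tissue. The sum of 7 markers of natural killer and cytotoxic cells was 82.5 and 6.53 CPM in tumor against 14.9 and 8.89 CPM. None of these markers was at 0 in any library, and the fold of tumor over neural tissue was larger in section 1 than in section 2 for 12 of 12, 8 of 8 and 7 of 7. The sum of 6 markers of B and plasma cells was 891.9 and 40.7 CPM in tumor, with the larger fold in section 1 for 6 of 6. The sum of 7 dendritic markers was 133.5 and 47.2 CPM in tumor against 67.55 and 89.35 CPM in neural tissue. In section 2 this sum was thus lower in tumor. Its markers had the larger fold in section 1 for 7 of 7, but 2 of the 7 were lower in tumor in both sections. That of 7 fibroblast markers, 63140 and 673.1 CPM in tumor, also had the larger fold in section 1 for 7 of 7. Most of these fibroblast markers, and the epithelial markers given above, are also among the genes that drew the border. Their higher level in tumor than in neural tissue is thus partly built in. Some other markers did not follow this order. In tumor, 7 neutrophil markers summed to 81.7 CPM in section 1 and 84.4 CPM in section 2, with the larger fold in section 1 for 1 of 7, and that of 6 endothelial markers was 297.1 and 445.5 CPM, with 0 of 6. Microglia markers, 6 in number, summed to 218.1 and 143.2 CPM in tumor against 154.8 and 212.8 CPM in neural tissue. Their fold was larger in section 1 for 4 of 6.

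Of the 9 other effectors and regulators 8 were called higher in tumor, against 19.2% of all genes. Trim30a was the exception (log2 fold change 1.36, adjusted p = 0.079). The median log2 folds of the 9 were 2.40 in section 1 and 2.19 in section 2. Bst2 (tetherin), which holds budding virions at the cell surface, measured 786.1 and 492.5 CPM in tumor against 67.2 and 100.7 CPM in neural tissue (log2 fold change 2.86, SE 0.37, adjusted p = 0.00194). Usp18, which removes ISG15 and blocks signalling from the type I receptor, measured 80.1 and 156.6 CPM against 17.7 and 33.9 CPM, with log2 folds of 2.15 and 2.19 in the 2 sections. Ifi44, Parp14, Rsad2, Rtp4, Ifi35 and Xaf1 rose by log2 fold changes of 3.15, 3.05, 2.32, 2.25, 2.02 and 1.85.

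The second comparison asked what the edge of the tumor, where tumor and neural tissue meet, held above neural tissue further away. Of the 38 genes 28 were higher at the edge and none was lower, with a median log2 fold change of 1.71 against −0.05 over all genes. Over all genes 7.74% were called higher and 10.6% lower. No member was lower at an unadjusted p under 0.05 (0 genes), and DESeq2 called 34 higher and 0 lower. Over all 19106 genes DESeq2 called 2183 higher and 2277 lower. All 38 were higher at the edge in both sections, against 33.3% of all genes. These counts treat the 2 sides of an edge as separate libraries, although both come from 1 mouse and are not independent. Summing both sides into 1 library left 6 libraries with fewer residual degrees of freedom. With these, edgeR called none of all genes and so no member, with 4808 genes and 29 members at an unadjusted p under 0.05.

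By role, the edge held 7 of 8 type I-leaning genes, 4 of 4 sensors, 3 of 4 transcription factors, 9 of 9 other effectors and 4 of 4 receptor chains above the threshold, but 1 of 8 gamma-leaning genes, Irf1 (log2 fold change 2.15, SE 0.34, adjusted p = 0.0101). The share of all genes called higher at the edge was 7.74%. DESeq2 called 7 of the 8 gamma-leaning genes higher there, and 2183 of all 19106 genes. The folds of the gamma-leaning genes at the edge were not small, with a median of 1.63 beside 1.82 for the type I-leaning genes, but they differed more between sections. Gbp2, for example, measured 300.4 CPM on the tumor side and 126.3 CPM on the neural side in section 1, against 77.8 and 82.2 CPM in section 2 (log2 fold change 2.17, SE 0.65, adjusted p = 0.0719).

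Rsad2 (viperin), which makes a chain-terminating nucleotide that stops viral RNA synthesis, had the largest change at the edge. It measured 103.4 and 100.4 CPM on the tumor and neural sides of the edge in section 1 and 64.5 and 50.2 CPM in section 2, against 6.84 and 17.7 CPM in neural tissue (log2 fold change 2.80, SE 0.68, adjusted p = 0.0397). Its place differed between sections. In section 1 the tumor held 32.2 CPM, below either side of its edge, and in section 2 the tumor held 91.3 CPM, above both. Irf8 was higher at the edge than in tumor in both sections, at 226 and 193.5 CPM in section 1 and 143.9 and 91.7 CPM in section 2, a difference that was not called (tumor against edge log2 fold change −0.58, adjusted p = 0.279).

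The third comparison set the tumor against its edge. Here 6 of the 38 genes were higher in tumor, Ddx58, Ifi44, Irf1, Oas3, Parp14 and Zbp1, and none was lower, while over all genes 8.75% were called higher and 8.37% lower. The 2 sides of an edge come from 1 mouse, and with both summed 1 member was called. The count was also 1 without the section as a block and 1 with library size alone, which moved the median of all genes to −0.27, and it was 3 with regions from 2-means clusters. The median log2 fold change was 0.55 over the list and 0.06 over all genes. No member was lower at an unadjusted p under 0.05 (0 genes), and DESeq2 called 7 higher and 0 lower. Over all 19106 genes DESeq2 called 2594 higher and 2013 lower. Ddx58 had the largest change, with 67.0 and 46.6 CPM on the 2 sides of the edge of section 1 and 86.2 and 66.0 CPM in section 2, below the tumor values given above (log2 fold change 1.37, SE 0.18, adjusted p = 0.00619). Oas3 (log2 fold change 1.14, adjusted p = 0.0472) and Irf1 (1.22, adjusted p = 0.0368) were nearer to the threshold.

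In this comparison the 2 sections parted for many genes. Tumor was above edge in both sections for 22 of the 38 genes and below it in both for 2, and 12 genes were above it in section 1 and below it in section 2. Over all 19106 genes tested 36.6% were above it in both, and 2460 were above it in section 1 and below it in section 2. For the gamma-leaning genes the median log2 fold of tumor over edge was 1.28 in section 1 and −0.14 in section 2, and for the type I-leaning genes 0.42 and 0.73. Iigp1 had log2 folds of 2.07 and −1.56, with 218.6 and 84.9 CPM on the tumor and neural sides of the edge in section 1 and 40.9 and 70.0 CPM in section 2. Among tumor and the 2 sides of the edge, leaving neural tissue aside, its level was thus lowest in tumor in section 2 and highest there in section 1.

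The balance of the 2 groups of genes was measured as the log2 ratio of their summed UMIs, with no test. In section 1 the gamma-leaning genes held 85159 UMIs and the type I-leaning genes 28438 UMIs in tumor, a log2 ratio of 1.58 (exact 95% interval 1.56 to 1.60, counting error only). The ratio fell to 1.05 on the tumor side of the edge, 0.65 on its neural side and 0.47 in neural tissue. In section 2 the tumor held 18878 and 28716 UMIs, a log2 ratio of −0.61 (−0.63 to −0.58), and the ratio was −0.29, −0.31 and −0.18 further out. Tumor minus neural tissue was thus 1.12 in section 1 and −0.42 in section 2 (mean 0.35, SD 1.09, n = 2), and edge minus neural tissue was 0.43 and −0.11 (mean 0.16, SD 0.39, n = 2). The spread between sections was larger than the mean in both cases, and the sections had opposite signs.

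The 2 tumors differed in the gamma-leaning sum more than in the type I-leaning sum. Per 1000000 UMIs, without TMM scaling, the type I-leaning genes summed to 723.4 in the tumor of section 1 and 756.3 in that of section 2, while the gamma-leaning genes summed to 2166 and 497.2. Against neural tissue of the same section, the gamma-leaning sum was 10.8-fold higher in section 1 and 1.92-fold higher in section 2, and the type I-leaning sum 4.99-fold and 2.58-fold higher. Leaving out Gbp2 and Oasl2, the most abundant gene of each group over both sections together, gave tumor minus neural differences of 1.11 and −0.15. Within section 2 Gbp2 was not the most abundant gamma-leaning gene. It held 2909 UMIs in tumor against 4771 for Irf1, and 785 UMIs in neural tissue against 1845 for Irgm1. Taking the median of the members' folds in place of summed UMIs gave 0.99 and −1.12, with a mean of −0.06, so that the mean turned its sign and the 2 sections kept theirs.

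**Figure D3:**
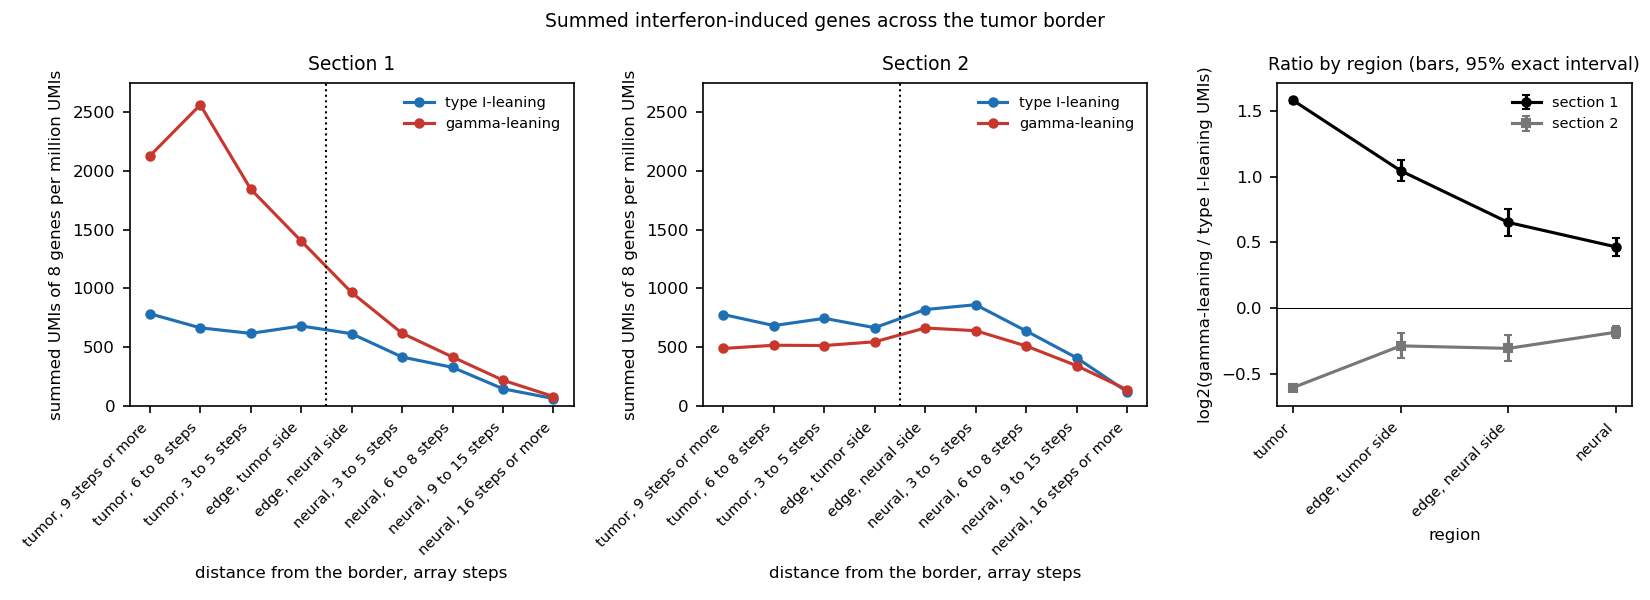
Summed UMIs of the 8 type I-leaning (blue) and 8 gamma-leaning genes (red) per 1000000 UMIs in 9 bands of distance from the border (dotted line) in section 1 (left) and section 2 (middle), and the log2 ratio of the groups by region (right, with exact 95% intervals for counting error). The gamma-leaning sum climbs to 2564 inside the tumor of section 1, while in section 2 both sums are highest just outside the border.

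The bands of distance extended both sums into neural tissue. In section 1 the gamma-leaning sum was 618.2 per 1000000 UMIs at 3 to 5 array steps from the border, 415.7 at 6 to 8, 218 at 9 to 15 and 79.2 at 16 or more, and the type I-leaning sum was 415.7, 327.6, 144.9 and 61.9. In section 2 the type I-leaning sum was 861.3 at 3 to 5 steps, its highest value anywhere in that section, and then 637.6, 409.1 and 119.8. Both sums fell with each band outward in both sections beyond 5 steps. The nearest band of neural tissue was above the farthest by 7.81-fold and 6.71-fold for the gamma-leaning and type I-leaning sums in section 1 and by 4.67-fold and 7.19-fold in section 2. Of the 38 genes 36 had their lowest level in the farthest band in section 1, and 36 in section 2. This count was not made over all genes, so it does not set these genes apart. The macrophage marker sum was 12.2-fold and 4.82-fold higher in the nearest than the farthest neural band of sections 1 and 2. For the endothelial marker sum it was 1.83-fold and 1.19-fold.

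Single genes peaked at different depths. In section 1, 27 of the 38 genes were highest in a band inside the tumor, 10 at the edge (5 on each side) and 1 in neural tissue. In section 2, 17 were highest inside the tumor, 15 at the edge (6 on the tumor side and 9 on the neural side) and 6 in neural tissue. Bands were not counted in this way over all genes. All 8 gamma-leaning genes were highest inside the tumor in section 1, and 1 of 8, Irf1, was in section 2. Oas1a, Oas2, Oas3 and Oasl2 were highest in the innermost band of the tumor in both sections, and Oasl1 was in section 2 only. Oas3 measured 55.5 and 81.0 per 1000000 UMIs there, whereas Ifit1 went from 57.1 in the innermost band to 40.5 at 3 to 5 steps outside in section 1, and from 57.0 to 135.2 in section 2.

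**Figure D4:**
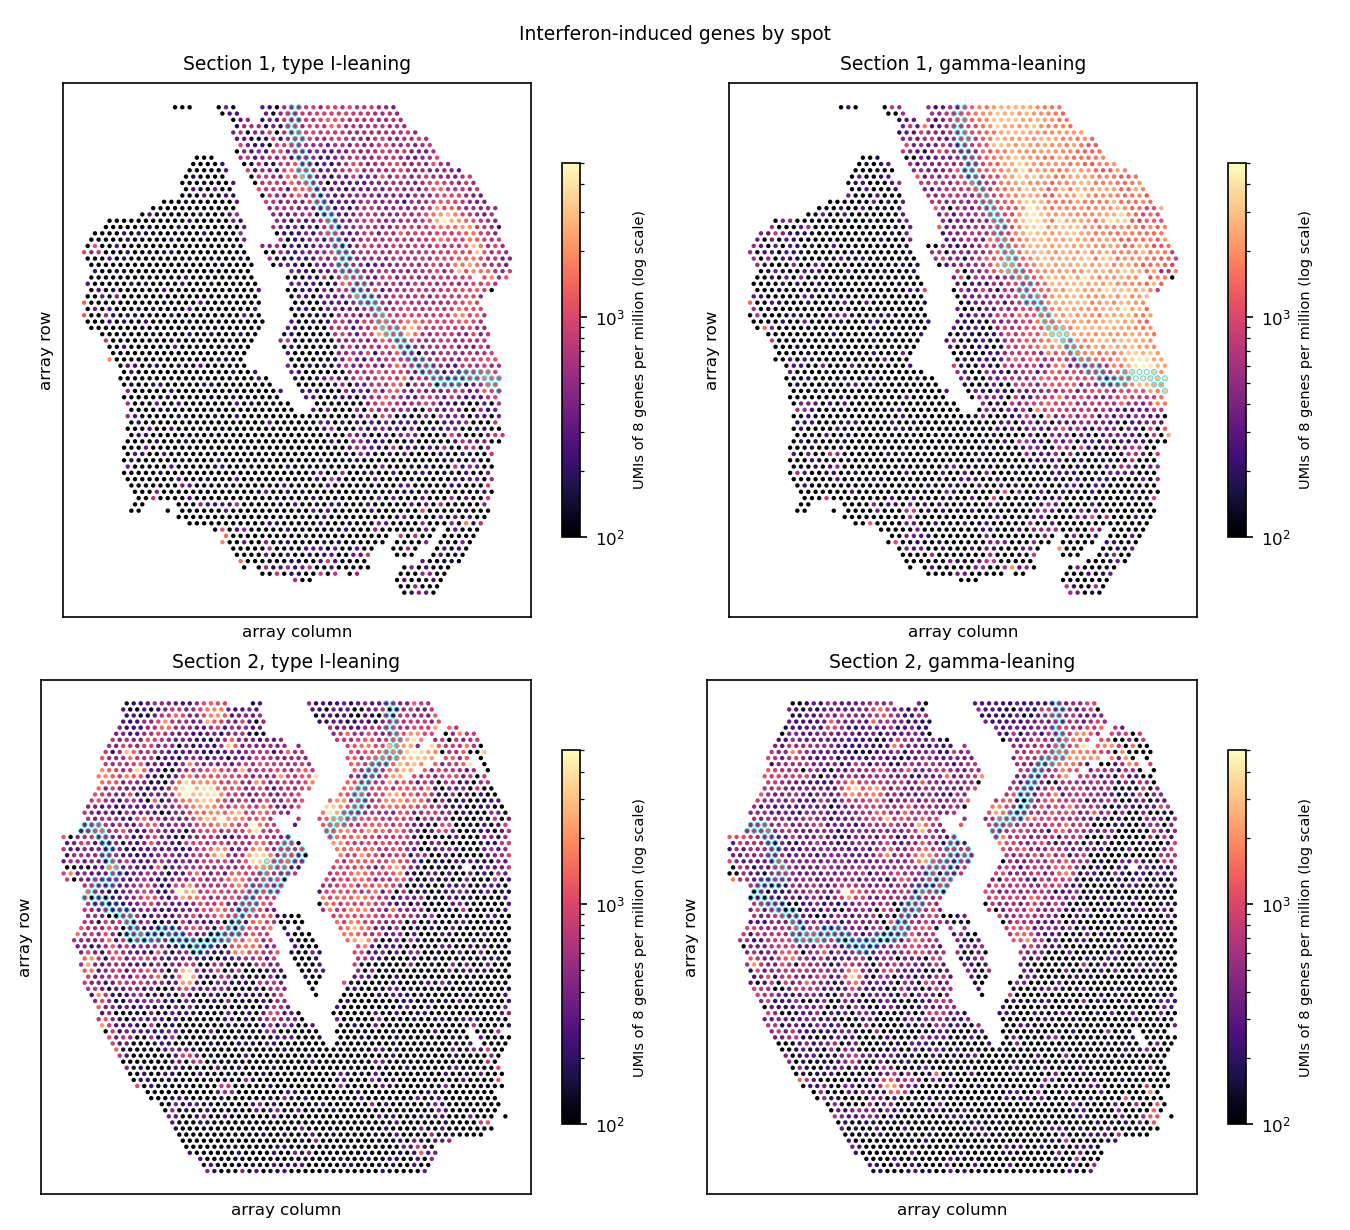
UMIs of the 8 type I-leaning genes (left) and the 8 gamma-leaning genes (right) per 1000000 UMIs of each spot, drawn at the spot's place on the array for section 1 (top) and section 2 (bottom), on a log colour scale from 100 to 5000 with values outside drawn at its ends. Ringed spots are the tumor side of the edge. The gamma-leaning genes fill the tumor of section 1, and in section 2 both groups form patches in the tumor and in neural tissue beside it.

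Spots within a section share a library and differ in depth, so relations across them are given as descriptions. In the tumor of section 1 the gamma-leaning sum had a median of 2062 per 1000000 UMIs over 739 spots, with 1284 at the 10th and 2887 at the 90th percentile, so it was high nearly throughout. In the tumor of section 2 the type I-leaning sum had a median of 558.7 over 1003 spots, with 217.3 and 1569 at the same percentiles, and it was patchy. The 10% of spots with the highest type I-leaning level held 31.2% of its UMIs in the tumor of section 2 and 20.3% in that of section 1. A level of 2000 per 1000000 for the type I-leaning genes was chosen after the values were seen. In section 2, 57 of 1003 tumor spots were above it, and 47 of them touched another such spot. In section 1, 15 of 739 tumor spots were above it, and 14 of them touched another. Beyond the tumor, 32 of 2571 neural spots and 17 of 164 spots on the neural side of the edge were above it in section 2. The section 1 values were 0 of 2335 neural spots and 1 edge spot. The median neural spot of section 2 held 1 UMI of this group, so a high level in a shallow neural spot can rest on few UMIs.

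The 2 groups of genes kept together across spots in section 2 and less so in section 1. Over the tumor spots of section 2 the Spearman correlation of the 2 sums was 0.675 (Pearson 0.829, n = 1003 spots), and over those of section 1 it was 0.29 (Pearson 0.254, n = 739). The mean spot held 28.6 and 18.8 UMIs of the type I-leaning and gamma-leaning genes in section 2 and 38.5 and 115 UMIs in section 1. The part of depth in the difference between these correlations was not tested. Each gene was then set against the rest of either group. In section 1 all 8 gamma-leaning genes followed the gamma-leaning sum more closely, by differences in Spearman's rho of 0.111 to 0.497, and all 8 type I-leaning genes followed the type I-leaning sum, with the same difference (gamma-leaning minus type I-leaning) between −0.368 and −0.061. In section 2 these differences for the gamma-leaning genes lay between −0.079 and 0.027. Only Gbp5, with a mean of 0.24 UMIs a spot, was on the gamma-leaning side. For the type I-leaning genes they lay between −0.125 and 0.027, with Ifit2 and Ifit3 on the gamma-leaning side. Irf1 followed neither sum closely in section 2 (rho 0.083 for the gamma-leaning and 0.090 for the type I-leaning sum).

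**Figure D5:**
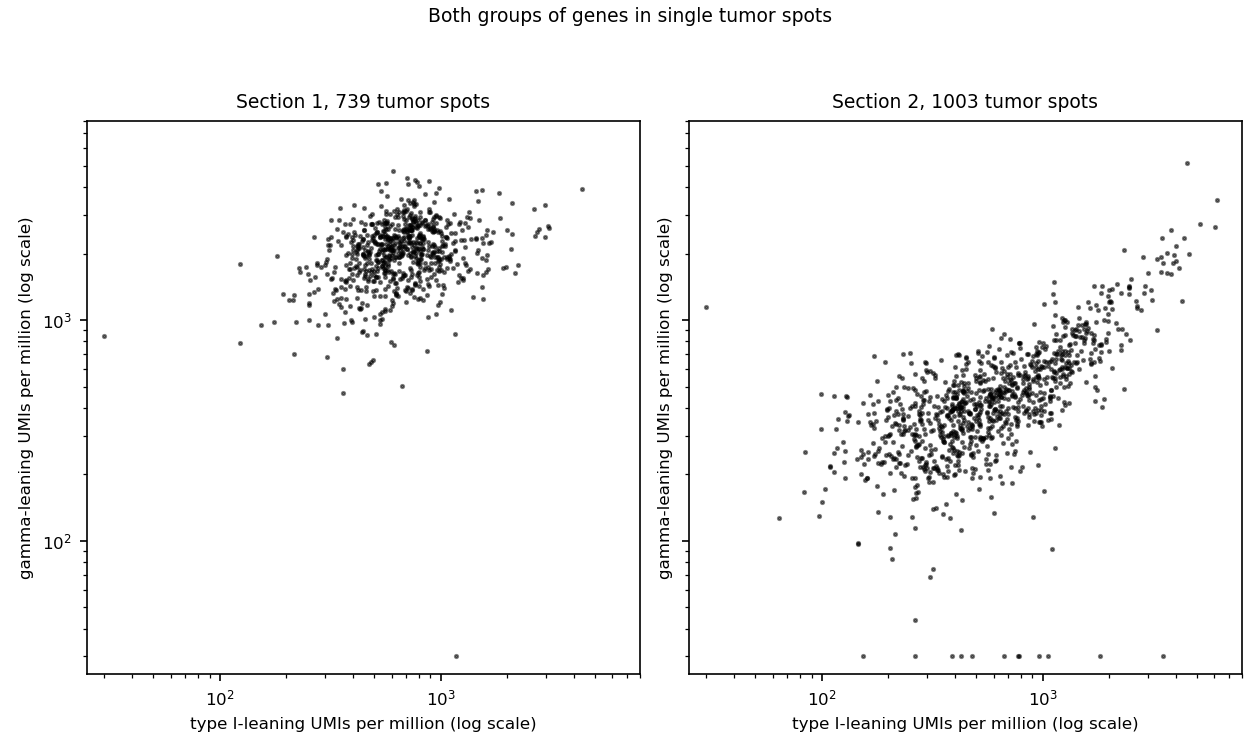
Type I-leaning against gamma-leaning UMIs per 1000000 in single tumor spots of section 1 (left, 739 spots) and section 2 (right, 1003 spots), on log scales, with spots that held no UMI of a group drawn at 30. The points form a diagonal band in section 2 and a rounder cloud at higher gamma-leaning levels in section 1.

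The members outside the 2 groups could be placed in the same way in section 1. Iigp1 followed the gamma-leaning sum (rho 0.658, against 0.302 for the type I-leaning sum), as did Irf8 (0.352 against −0.086), while Bst2 (0.145 against 0.575), Irf7 (0.14 against 0.555) and Rtp4 (0.236 against 0.558) followed the type I-leaning sum. Zbp1 stood between them (0.407 against 0.478), as did Parp14 (0.355 against 0.317). In the tumor of section 1 the gamma-leaning sum followed the T cell markers with a rho of 0.445 and the macrophage markers with 0.325, and the type I-leaning sum with 0.214 and 0.041. In the tumor of section 2, where T cell markers averaged 0.496 UMIs a spot, the values were 0.032 and 0.18 for the gamma-leaning sum and 0.041 and 0.107 for the type I-leaning sum. In neural tissue both sums followed macrophage markers, with rho between 0.376 and 0.531 over 2335 and 2571 spots. These spots held few UMIs of either group, with means between 1.23 and 3.19. Both sums and the macrophage markers also fell with distance from the border there, and the part of this shared fall in the correlation was not tested.

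The other parts of the pathway were read from lists of ligands, kinases and STATs, feedback and related genes, and further interferon-induced genes. Of 21 interferon ligands listed 17 were found among the genes measured, and interferon beta was not among them. None of the 17 was called in any comparison, and DESeq2 called 0 in each. At an unadjusted p under 0.05 there were 0, 2 and 1 in tumor against neural, edge against neural and tumor against edge. Ligands other than Ifnz lay between 0 and 6.38 CPM in every library, and Ifnz between 13.4 and 25 CPM. Ifng, the gene of interferon gamma, measured 4.71 CPM (161 UMIs) in the tumor of section 1 and 0.29 CPM (9 UMIs) in that of section 2, against 1.33 CPM (29 UMIs) and 0.63 CPM (18 UMIs) in neural tissue.

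Of 10 kinases and STATs 7 were called higher in tumor than in neural tissue and none lower (0 at an unadjusted p under 0.05, DESeq2 8 higher and 0 lower). The shares of all genes called in this comparison were 19.2% higher and 17.4% lower, and DESeq2 called 4555 of all 19106 genes higher and 3215 lower. Tyk2 rose by a log2 fold change of 1.43 (adjusted p = 0.00177), with 64.5 and 66.1 CPM in tumor against 24.8 and 23.9 CPM. Jak1 (log2 fold change 0.57, adjusted p = 0.0527) and Jak2 (0.78, adjusted p = 0.0629) were just short of the threshold. Of 10 genes listed as feedback and related genes 7 were called higher. That list is not confined to inhibitors of the pathway, so the count is not one of inhibitors. Socs1, which blocks the Jak kinases, was not called (log2 fold change 1.97, adjusted p = 0.0895), with 82.4 and 18.5 CPM in tumor against 6.70 and 13.4 CPM.

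Of 53 further interferon-induced genes measured, 40 were called higher in tumor than in neural tissue and none lower (0 at an unadjusted p under 0.05, DESeq2 46 higher and 0 lower), with a median log2 fold change of 2.27. At the edge 34 were called higher and none lower (0 at an unadjusted p under 0.05, DESeq2 41 higher and 0 lower), and in tumor against edge 11 were higher and 1 lower. The shares of all genes called higher in these 3 comparisons were 19.2%, 7.74% and 8.75%. Those called lower were 17.4%, 10.6% and 8.37%. DESeq2 called 4555 of all 19106 genes higher and 3215 lower in tumor against neural tissue. At the edge it called 2183 higher and 2277 lower. The largest changes in tumor against neural tissue were those of Gbp8 (5.14, imprecise at levels of 5.38 and 0.58 CPM in tumor and 0.05 and 0.07 CPM in neural tissue), Ifi203 (3.73, a nuclear DNA-binding protein) and Phf11d (3.64). At the edge they were those of Cxcl10 (2.62), a chemokine that draws T cells, Mlkl (2.61), the executor of necroptosis, and Cd274 (2.56), which encodes PD-L1. In tumor against edge they were those of Ly6e (1.56), Ifi203 (1.44) and Phf11d (1.41), and the gene called lower was Ifitm1 (−1.19), at 32.4 and 26.3 CPM in tumor against 108.1 and 84.5 CPM at the edge of section 1 and 60.9 and 35.6 CPM at that of section 2.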

How the data were processed

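UMIs per gene and spot under tissue were deposited as raw counts, without normalization. Per the labels, the authors used Space Ranger 2.1.1 with build mm10. Later steps of the authors (a region of interest, clusters, deconvolution) are not in these counts, and the study's clusters were not used here. Spots with at least 500 UMIs and 10 genes were kept (3315 and 3999 of 3406 and 4017 spots). Sections share 3096 position barcodes, which are those of the array design. The border score is the log2 ratio of summed UMIs of 10 epithelial and 12 stromal genes over 24 neural genes. It was averaged over a spot and its up to 6 neighbors and cut at Otsu's threshold within each section. The cut was 0.0735 in section 1 and −2.32 in section 2. Regions of the same name therefore need not hold the same mix of tissue in both sections. Pieces of tumor under 50 spots (67 spots in section 2) were left out.

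Each region of each section gave 1 library, the sum of its spots, 8 libraries in all (TMM factors 0.815 to 1.11), because spots of 1 section are not replicates. Fits used edgeR 4.0.16 in R 4.3.3 (filterByExpr, robust glmQLFit, glmQLFTest), with 3 residual degrees of freedom and the section as a block. Regions of a section come from 1 mouse, and edgeR's common dispersion fell from 0.134 to 0.0804 when the section entered the fit. Depth makes counting error small for all but rare transcripts, and the 2 sections set the precision. Scripts were tested on simulated data first.

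The genes named are all members found, the interferon ligands, Jak1, Jak2, Tyk2, Socs1 and, per comparison and direction, the 3 called genes of the list of further interferon-induced genes with the largest change; 1 further gene of this rule is not reported here. Members and lists were chosen with earlier results of these data known. Gene positions and promoters came from RefSeq tables of GRCm38.p6 and were matched by symbol (38 of 38 genes placed). Alternatives were DESeq2 1.42.0, RLE factors, library size alone, no filter on low counts, no block, edges of 1 and 3 steps, a minimum of 1000 UMIs, regions from 2-means clusters, both sides of the edge summed, each section alone and, for the ratio of the groups, other gene sets and medians. Tables and plots used Python 3.11.15, scipy 1.17.1, pandas 2.3.3 and matplotlib 3.10.9.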

Additional observations from a re-analysis of the deposited data

How the results depend on the processing

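The count of members higher in tumor than in neural tissue lay between 24 and 36 under all alternatives. The count at the edge was 28, and it was 18 with regions from 2-means clusters and 0 with both sides of the edge summed. Tumor against edge, with 6, gave 1 with library size only, 1 without the replicate block, 3 with 2-means clusters and 1 with the edge summed. Without the replicate block 28, 19 and 1 members were called in the 3 comparisons. Over all genes, library size only called 7683 genes in tumor against neural, of which 2483 were higher (main 6995 and 3662), and 2680 in tumor against edge, of which 397 were higher (main 3270 and 1671). The edge summed called 0 genes at the edge (main 3499) and 721 in tumor against edge, and no replicate block called 2079 and 1759 in those comparisons.

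The signs of some small folds turned in tumor against edge. Library size only gave −0.20 for Ifit1, −0.29 for Irgm1, −0.016 for Cgas, −0.20 for Irf7, −0.029 for Ifngr2, −0.094 for Jak1 and −0.050 for Jak2. An edge of 1 step gave −0.11 for Irgm1 and 2-means clusters gave 0.092 for Ifnar2. No other alternative with both sections turned a sign among the genes named. Leaving out a section gave values with no test, from −0.42 to 1.12 for the ratio of the groups in tumor minus neural tissue and from −0.11 to 0.43 at the edge, where all other alternatives moved the mean by less than 1 SD. Of these, the median of the members' folds turned the sign of both means, to −0.06 in tumor minus neural tissue and −0.10 at the edge. In tumor against neural, leaving out each section gave −0.15 to 1.71 for Ifit3, −0.36 to 4.12 for Gbp5, −0.11 to 5.45 for Iigp1 and −0.060 to 1.60 for Stat2. In tumor against edge it gave −0.28 to 0.46 for Ifit1, −1.03 to 0.13 for Ifit2, −0.80 to 0.32 for Ifit3, −0.10 to 1.20 for Oasl1, −1.19 to 1.55 for Gbp5, −0.39 to 1.25 for Gbp7, −0.35 to 1.10 for Igtp, −0.60 to 0.47 for Irgm1, −1.56 to 2.07 for Iigp1, −0.10 to 0.69 for Cgas, −0.054 to 0.27 for Irf7, −1.65 to 0.68 for Rsad2, −1.09 to 0.16 for Trim30a, −0.53 to 0.13 for Ifnar2 and −0.40 to 0.91 for Socs1. The cause of these changes was not tested.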

Other observations

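Other interferon-induced genes, chosen after their values were seen, parted between the sections as Iigp1 did. Cxcl9, a chemokine that interferon gamma induces, measured 306.6 CPM in the tumor of section 1 and 1.81 CPM in that of section 2, against 2.94 and 0.77 CPM in neural tissue. Ciita, the switch of MHC class II genes, measured 113 and 5.56 CPM in tumor against 6.98 and 4.08 CPM. Gbp4 measured 198.1 and 7.69 CPM in tumor against 8.495 and 8.398 CPM. Ly6e, a type I interferon target, had closer log2 folds of tumor over neural tissue, 3.49 and 3.29. The type I-leaning Ifit2 (2.37 and 0.40) and Ifit3 (1.71 and −0.15) did not, so the parting was not confined to gamma-leaning genes. Over the tumor spots of section 1 the gamma-leaning sum and Cxcl9 had a Spearman correlation of 0.629 (n = 739 spots of 1 library), and the type I-leaning sum and Cxcl9 one of 0.212.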
